A study of Mus musculus with 99 samples.

Results

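The 9 neuronal nicotinic acetylcholine receptor subunit genes Chrna2, Chrna3, Chrna4, Chrna5, Chrna6, Chrna7, Chrnb2, Chrnb3 and Chrnb4 were followed through 5 brain regions of juvenile mice. They were found by their gene symbols among 55335 counted gene identifiers, and each matched 1 identifier. The mice carried the Wildtype genotype and were offspring of C57BL/6 dams. Dams of the fentanyl groups drank water that held the opioid at 10 µg/ml from embryonic day 0 up to weaning, and the comparison groups are labelled Water. RNA came from punches of the ventral tegmental area (VTA), ventrobasal thalamus (VBT), somatosensory cortex (S1), prelimbic cortex (PrL) and nucleus accumbens (NAc) of females and males. This gave 20 groups of region, sex and treatment and 99 libraries, with 5 in each group except 4 in S1 males on water. The labels give neither the day of collection nor the litter, and they do not say whether libraries came from separate animals. The p-values therefore measure the spread between these libraries. A punch is a mixture of cells, so fewer cells of a type and less RNA per cell cannot be told apart in any value below.

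Nicotinic receptors are ion channels built from subunits around a central pore, opened by acetylcholine or by nicotine. Alpha4 and beta2 form the most widespread heteromeric receptor of the brain, and alpha7 can form a channel by itself. Alpha6 and beta3 are known from midbrain dopamine neurons, and alpha3, alpha5 and beta4 from the medial habenula, the interpeduncular nucleus and peripheral ganglia. Alpha5 and beta3 are accessory subunits, which need other alpha and beta subunits for a working channel.

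All 9 genes are protein coding, and 5 of them lie next to another member in GRCm38. Chrna5 (plus strand, chr9:54980880-55007779) and Chrna3 (minus strand, chr9:55010111-55026562) face each other with their 3′ ends 2331 bases apart. Chrnb4 (minus strand, chr9:55028154-55048779) begins the same run of genes, with its 3′ end 1591 bases from the start of Chrna3. On chromosome 8, Chrnb3 (plus strand, chr8:27368711-27399730) and Chrna6 (minus strand, chr8:27403212-27413944) face each other with 3481 bases between their 3′ ends. The other 4 stand alone, Chrna2 at chr14:66135039-66152948, Chrna4 at chr2:181018380-181043546, Chrna7 at chr7:63098692-63212569 and Chrnb2 at chr3:89746195-89764632. Of the 8380 exon bases of Chrnb2, 1365 are also exon of Adar on the other strand. The SMART-Seq v4 libraries do not keep strand, so reads there could not be told apart. The strand setting of the counting is not given in the sources used here. Levels of Chrnb2 per kilobase below use all 8380 bases.

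Windows upstream of the start site were available from RefSeq (GRCm38.p6) for 6 of the 9 genes. The 250 bases before the start site are printed below for 3 of them, whose start site is at the same base in RefSeq and GENCODE: Chrna5 (chr9:54980630-54980879, plus strand), Chrna3 (chr9:55026563-55026812, minus strand) and Chrnb2 (chr3:89764633-89764882, minus strand). The first pair is shown because they are neighbours whose levels are set side by side below, and Chrnb2 because it was read in every region. Capitals mark the GC box, GGGCGG or CCGCCC on either strand, a motif that zinc finger factors of the Sp family are known to bind. It was present in 32.7% of 32851 such windows of all genes.
Chrna5: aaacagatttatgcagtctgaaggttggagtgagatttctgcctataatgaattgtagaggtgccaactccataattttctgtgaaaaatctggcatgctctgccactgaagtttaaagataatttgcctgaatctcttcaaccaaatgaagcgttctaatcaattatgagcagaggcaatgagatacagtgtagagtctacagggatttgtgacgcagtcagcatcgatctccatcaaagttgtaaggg
Chrna3: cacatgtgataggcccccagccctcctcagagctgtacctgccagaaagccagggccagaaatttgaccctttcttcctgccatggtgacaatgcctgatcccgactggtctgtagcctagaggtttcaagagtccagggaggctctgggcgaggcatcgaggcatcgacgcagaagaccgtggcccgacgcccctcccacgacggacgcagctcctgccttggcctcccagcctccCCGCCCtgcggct
Chrnb2: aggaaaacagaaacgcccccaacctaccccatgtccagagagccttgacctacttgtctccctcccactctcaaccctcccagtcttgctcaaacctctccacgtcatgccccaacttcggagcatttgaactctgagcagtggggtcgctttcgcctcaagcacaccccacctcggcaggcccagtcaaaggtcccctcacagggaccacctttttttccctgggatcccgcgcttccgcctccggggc
The Chrna3 window held 1 GC box, whose first base lay at -13 from the start site. Neither the Chrna5 nor the Chrnb2 window held one, and their GC content was 40.0% and 59.6%, against 63.2% for Chrna3 and a median of 52.4% over all windows. A further Chrna5 window, for a RefSeq start site 608 bases downstream, held 4 GC boxes. Among the genes whose window is not printed, Chrna4 held 3 GC boxes, Chrna7 1 and Chrnb4 0. Their start sites differ between RefSeq and GENCODE.

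Levels are counts per 1000000 gene counts of a library (CPM). The 98 libraries used held between 23032078 and 52069639 counts and at least 24079 detected genes each, and 3 counts were worth 0.0576 to 0.13 CPM. Values at or under 3 counts are not read as a level. VTA male water 3 was left out. It held 16515545 counts but only 6333 detected genes, with Chrna4 at 389 CPM, Chrna6 at 0.0605 CPM and 6 of the other subunits at 0. Dopamine neuron, thalamic relay and striatal markers were highest in the regions of those names. All 6 dopamine neuron markers were read in all 19 VTA libraries, and the mean log2(CPM + 1) of the list was 3.94 to 6.47 there and at most 1.78 elsewhere. The thalamic relay list scored 7.02 to 8.67 in VBT and at most 5.21 elsewhere, and the striatal list 7.19 to 8.96 in NAc and at most 6.52 elsewhere. The cortical projection neuron list scored 6.61 to 7.01 in S1, 6.45 to 7.15 in PrL, at most 2.46 in VTA and VBT, but 2.45 to 6.06 in NAc. The list of cortical layer 6 genes did not mark cortex: its median was 5.84 in NAc, 5.29 in VTA, 4.20 in PrL, 3.89 in S1 and 3.67 in VBT.

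Several libraries stood apart from others of their label in ways that touch the results. In VTA, female water 1, male fentanyl 1 and male fentanyl 4 had the lowest scores of Th, Slc6a3 and Slc18a2, the genes for dopamine synthesis, reuptake and vesicle loading, at 6.81, 6.12 and 6.66. Female fentanyl 3 was next at 7.03, and the other 15 were at 7.74 to 9.07. The 3 genes did not fall alike in them: Th and Slc6a3 were lowest in male fentanyl 1 (23.8 and 33.3 CPM, VTA medians 254 and 439), where Slc18a2 was 393 CPM (median 389), while Slc18a2 was lowest in male fentanyl 4 (93.9 CPM). The mean score of the interpeduncular markers Otp, Pax7, Nkx6-1 and Otx2 was lowest in male fentanyl 4, through Otp and Pax7. In VBT, female water 2, male water 3 and male fentanyl 5 carried striatal scores of 5.91, 6.52 and 5.31 with thalamic scores of 7.60, 7.02 and 7.75, the lowest 3 of the region. VBT female water 2 held the choroid plexus gene Ttr at 4125 CPM. VBT female fentanyl 1 held 20.9 CPM of 4 Y-linked genes, against at most 1.53 CPM in the other female libraries and at least 190 CPM in males. In PrL, female water 5 and male water 3 had olfactory bulb scores of 4.83 and 5.66, male water 4 had 2.64, and the other 17 had at most 1.22. The 20 NAc libraries varied in cortical content, with Slc17a7, the vesicular glutamate transporter gene of cortical projection neurons, at 42.1 to 1183 CPM, against 954 to 1391 CPM in S1.

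The first comparison asked how the subunits are distributed over the regions in water offspring. In VTA, 7 of the 9 subunits were higher than in each of the other 4 regions: Chrna2, Chrna3, Chrna5, Chrna6, Chrna7, Chrnb3 and Chrnb4. Of all 21468 genes tested, 9.96% had that pattern. The other 2, Chrna4 and Chrnb2, were higher in VBT than in each other region, a pattern of 11.8% of genes. Chrna2 and Chrna7 were lower in VBT than in each other region, as were 10.4% of genes. Over all 10 pairs of regions, 68 of the 90 differences passed edgeR's quasi-likelihood test at an adjusted p under 0.05, against 59.6% for all genes.

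By pair, all 9 subunits were higher in VTA than in S1, PrL and NAc, where 36.0%, 35.1% and 34.7% of genes were. Against VBT, 7 were higher and 2 lower in VTA, with 27.4% and 25.1% of genes. VBT had 2 higher and 4 lower than S1 (34.5% and 33.5% of genes), 3 higher and 4 lower than PrL (34.4% and 34.0%), and 3 higher and 2 lower than NAc (34.1% and 33.7%). S1 had 2 higher and 4 lower than PrL (18.3% and 19.0%) and 3 higher and 2 lower than NAc (27.0% and 26.4%). PrL had 3 higher than NAc (25.5%) and none lower (24.8%). The pairs with PrL rested in part on the 2 PrL libraries high in olfactory bulb genes. Without them Chrnb4 lost its calls against VBT and S1, where it was counted as higher in PrL. Chrna3, counted as higher in PrL than in NAc, was then called lower in PrL than in NAc, VBT and S1 (adjusted p = 0.0274, 3.9e-05 and 7.48e-05), and Chrnb4 was called lower in PrL than in NAc. Apart from VTA, no region was thus higher than the rest for most of the subunits.

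**Figure D1:**
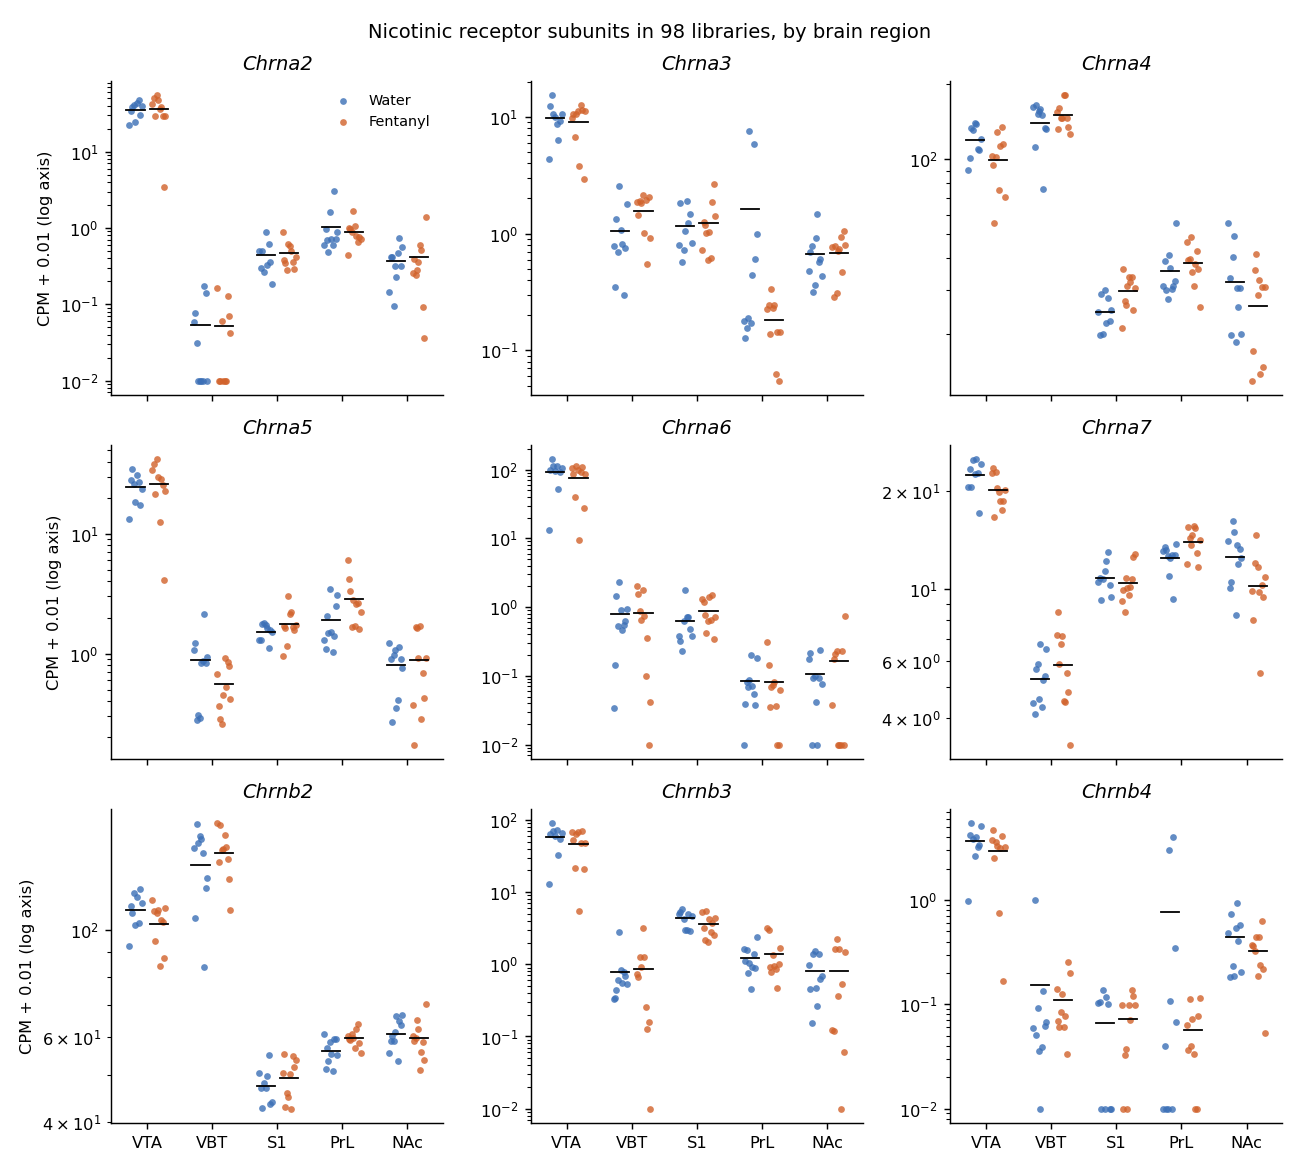
CPM plus 0.01 on a log axis in each of 98 libraries, 1 panel per subunit, with the 5 regions on the horizontal axis, water in blue and fentanyl in orange, and a black line at each mean. Chrna6 and Chrnb3 sit highest in VTA with 4 low libraries, Chrna4 and Chrnb2 are read in every region, and 2 PrL water libraries stand far above the rest for Chrna3 and Chrnb4.

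Chrna4 and Chrnb2, the genes of the widespread alpha4 beta2 receptor, were read at over 10 CPM in every library used. In water, Chrna4 was 140 ± 27.9 CPM in VBT (SD, n = 10), 119 ± 17.8 in VTA (n = 9), 35.5 ± 8.35 in PrL (n = 10), 32.3 ± 12.7 in NAc (n = 10) and 24.4 ± 3.75 in S1 (n = 9). The VBT libraries ran from 75.9 CPM over a median of 152 to 166 and the VTA libraries from 90.4 over 121 to 140, so these overlapped, while every VTA library was above every PrL library. VBT exceeded VTA by 0.37 on the log2 scale (SE 0.15, adjusted p = 0.0389), and VTA exceeded PrL by 1.65 (SE 0.16, adjusted p = 2.45e-12). The difference between VBT and VTA lost its call in 12 of 48 fits that left out 1 library, for example without VTA female water 1 (0.33, adjusted p = 0.0729), and without a filter on low counts (0.39, adjusted p = 0.053). PrL, NAc and S1 did not differ between neighbours in this order, although PrL and S1 did (0.55, SE 0.16, adjusted p = 0.00499).

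Chrnb2 followed the same order at the top, with 136 ± 25.8 CPM in VBT and 110 ± 9.31 in VTA, then 60.9 ± 4.40 in NAc, 56.1 ± 3.46 in PrL and 47.5 ± 3.93 in S1. VBT exceeded VTA by 0.44 (SE 0.08, adjusted p = 4.46e-06), and VTA exceeded NAc by 0.85 (SE 0.08, adjusted p = 5.17e-13) with no overlap of libraries. NAc and PrL did not differ beyond their spread, and PrL exceeded S1 by 0.25 (SE 0.08, adjusted p = 0.0106). The 3 VBT libraries with the lowest thalamic scores were also the 3 lowest for Chrnb2, at 106 CPM in female water 2, 83.5 in male water 3 and 110 in male fentanyl 5. The other 17 VBT libraries held 122 to 166 CPM. For Chrna4 those 3 libraries held 112, 75.9 and 126 CPM, and the other 17 held 132 to 180. The part of tissue content in these low values was not tested.

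Chrna6 and Chrnb3 were far higher in VTA than in any other region. Chrna6 was 91.2 ± 37.5 CPM in water VTA (n = 9), with a lowest library of 13.3, a median of 99.4 and a highest of 141. VBT followed at 0.785 ± 0.667 CPM and S1 at 0.616 ± 0.471, and in PrL and NAc 8 and 6 of 10 libraries held 3 counts or fewer. VTA exceeded VBT by 6.70 on the log2 scale (SE 0.40, adjusted p = 7.03e-18), with no overlap of libraries. VBT and S1 did not differ beyond their spread, and S1 exceeded NAc (adjusted p = 0.00138), with no fold given because most NAc libraries were not readable.

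Chrnb3 was 58.2 ± 22.9 CPM in water VTA, from 12.8 over 64.8 to 89.6. Unlike Chrna6, its next region was clearly S1, the somatosensory cortex, at 4.31 ± 1.13 CPM (n = 9), where all 9 libraries lay between 2.89 and 5.88. VTA exceeded S1 by 3.67 (SE 0.34, adjusted p = 2.48e-12). S1 exceeded PrL, at 1.20 ± 0.549 CPM, by 1.80 (SE 0.35, adjusted p = 6.54e-05), and the libraries of S1 and PrL did not overlap. PrL, NAc (0.788 ± 0.499 CPM) and VBT (0.783 ± 0.730 CPM) did not differ between neighbours beyond their spread.

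Within VTA the ratio of the pair varied less than the level of Chrna6, which ran over more than an order of magnitude. Chrna6 in females was 13.3, 99.4, 141, 112 and 93.9 CPM in water libraries 1 to 5 and 105, 86.6, 39.4, 111 and 98.3 CPM in fentanyl libraries 1 to 5. In males it was 111, 51.3, 92.1 and 107 CPM in water libraries 1, 2, 4 and 5 and 9.46, 92.2, 107, 27.4 and 86.8 CPM in fentanyl libraries 1 to 5. The 3 lowest were 1 water and 2 fentanyl libraries, the same 3 that had the lowest dopamine neuron scores. Per kilobase of exon, the ratio of Chrna6 to Chrnb3 was 3.34 ± 0.415 in water (n = 9, range 2.28 to 3.75) and 3.61 ± 0.399 in fentanyl libraries (n = 10, range 2.86 to 4.15). The lowest ratio, 2.28, was in female water 1, the water library with the least Chrna6.

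Over the 19 VTA libraries, log2(CPM + 1) of Chrna6 followed the dopamine neuron score with Pearson's r = 0.946 and Spearman's rho = 0.907, each with a permutation p of 1e-05, the smallest 100000 resamples can give (3e-05 after Benjamini-Hochberg adjustment over 6 subunits). Without the 2 libraries farthest from the median score r was 0.905, and it was 0.983 within water (n = 9) and 0.954 within fentanyl (n = 10). For Chrnb3, r was 0.960 and rho 0.946, with the same permutation p. Chrna3 (r = 0.881, rho = 0.579), Chrnb4 (0.870 and 0.686), Chrna5 (0.739 and 0.570) and Chrna4 (0.688 and 0.767) also followed the score, with adjusted permutation p of at most 0.0119. Punches with a lower mean score of Th, Slc6a3 and Slc18a2 thus also held less of the chromosome 8 pair, in both treatments, although Slc18a2 by itself was not low in male fentanyl 1, the library with the least Chrna6.

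Chrna2 went with another set of genes. It was 35.6 ± 8.41 CPM in water VTA, from 22.6 over 38.0 to 47.2, and 1.01 ± 0.763 CPM in PrL, the next region, a difference of 5.05 on the log2 scale (SE 0.28, adjusted p = 1.59e-19). S1 (0.427 ± 0.216 CPM) and NAc (0.362 ± 0.196 CPM) did not differ beyond their spread, and in VBT 8 of 10 libraries held 3 counts or fewer. Over the VTA libraries its r with the dopamine score was 0.528 (rho = 0.375, adjusted permutation p = 0.0343 and 0.133). With the score of the interpeduncular markers, r was 0.918 and rho 0.868 (each with an adjusted permutation p of 7e-05 over 7 relations), 0.834 without the 2 farthest libraries, 0.826 within water and 0.949 within fentanyl. The interpeduncular nucleus borders the VTA at the midline, and alpha2 is known from it. Chrna6 and Chrnb3 gave r = 0.547 and 0.527 with the interpeduncular score (rho = 0.489 and 0.509, adjusted permutation p = 0.0343 and 0.0346 for r and 0.0484 for both rho), as large as that of Chrna2 with the dopamine score, and 0.382 and 0.405 without the 2 farthest libraries. These 7 relations were chosen after the values had been seen.

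The libraries at the low end differed from each other. VTA male fentanyl 4 held Chrna2 at 3.43 CPM, with Otp at 1.55 and Pax7 at 2.15 CPM, against medians of 29.1 and 32.6 CPM over VTA. The other 2 interpeduncular markers were not low there, with Nkx6-1 at 8.96 CPM (median 6.67) and Otx2 at 8.12 CPM (median 9.70). VTA male fentanyl 1, with the lowest dopamine score and the least Chrna6, held Chrna2 at 36.3 CPM, inside the range of the other libraries. Male fentanyl 4 also carried a cholinergic score (Chat, Slc18a3, Slc5a7) of 4.87, the highest in VTA, where the median was 1.31.

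**Figure D2:**
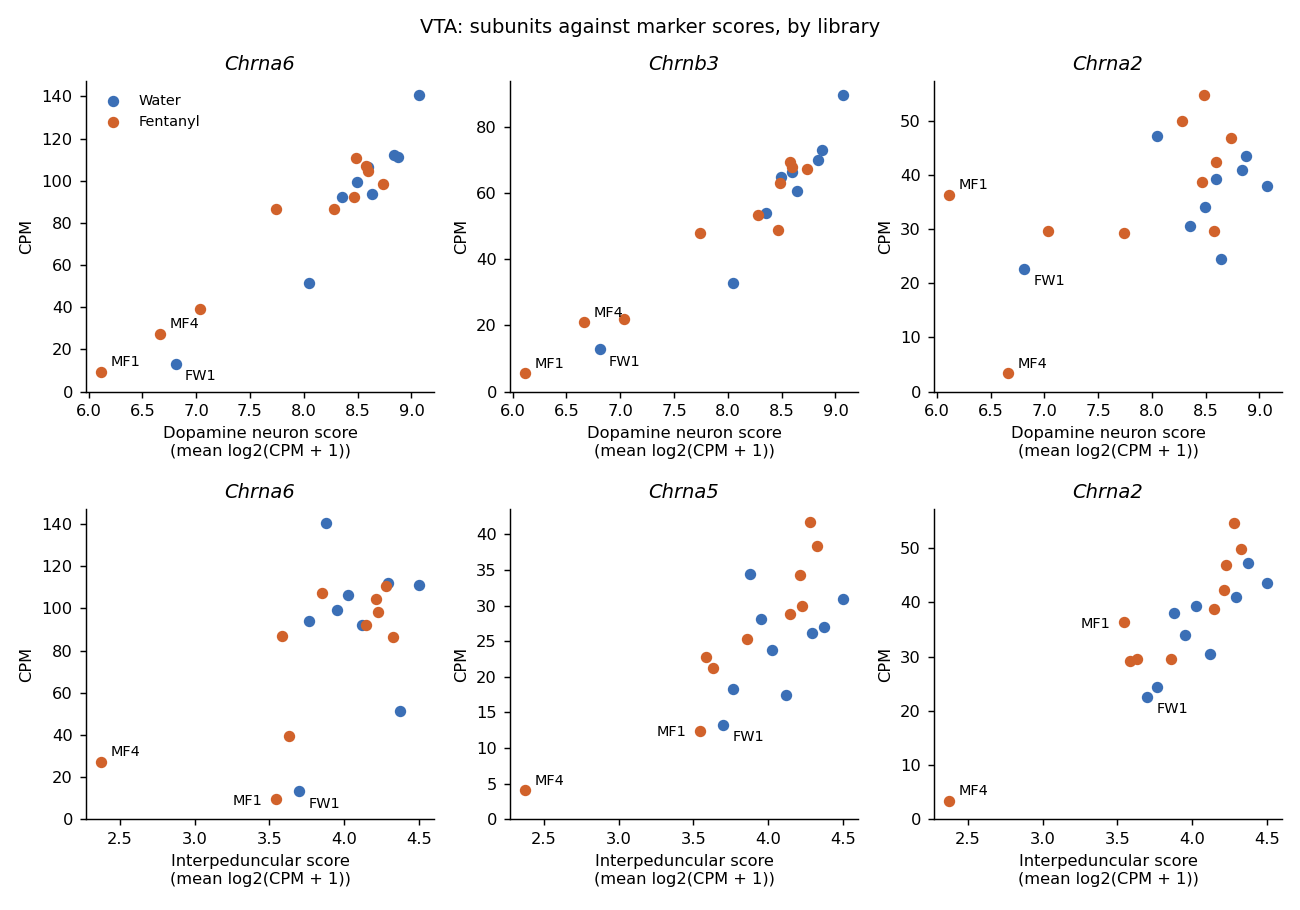
CPM of subunits in 19 VTA libraries (vertical axis) against marker scores, the mean log2(CPM + 1) of 3 dopamine neuron genes (upper row) or 4 interpeduncular genes (lower row), with water in blue and fentanyl in orange. FW1, MF1 and MF4 are female water 1, male fentanyl 1 and male fentanyl 4; Chrna6 and Chrnb3 fall in all 3, while Chrna2 is at 36.3 CPM in MF1 and 3.43 CPM in MF4.

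The chromosome 9 neighbours Chrna5, Chrna3 and Chrnb4 were all highest in VTA. In water VTA, Chrna5 was 24.4 ± 6.86 CPM, Chrna3 9.74 ± 3.17 and Chrnb4 3.63 ± 1.32 (n = 9), which per kilobase of exon is a level of 7.80, 1.85 and 0.975 CPM per kb. Chrna5 exceeded its PrL level (1.88 ± 0.846 CPM) by 3.59 on the log2 scale (SE 0.26, adjusted p = 1.07e-15), with no overlap. Below that, PrL and S1 (1.52 ± 0.243 CPM) did not differ beyond their spread, S1 exceeded VBT (0.870 ± 0.556 CPM) by 0.81 (SE 0.28, adjusted p = 0.0101), and VBT and NAc (0.791 ± 0.341 CPM) did not differ. In VTA, Chrna5 followed the interpeduncular score with r = 0.876 and rho = 0.737 (adjusted permutation p = 0.000175 and 0.00147), and r fell to 0.605 without the 2 farthest libraries. For Chrna3 the interpeduncular relation rested on those libraries (r = 0.625 with all 19 and 0.111 without them, rho = 0.172, adjusted permutation p = 0.0112 and 0.477). Chrnb4 gave r = 0.779 with all and 0.407 without them (rho = 0.507, adjusted permutation p = 0.00128 and 0.0484).

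The place of PrL in the order of Chrna3 and Chrnb4 was set by the 2 libraries with high olfactory bulb genes. Chrna3 was 7.61 CPM in PrL female water 5 and 5.86 in male water 3, and 0.118 to 0.982 CPM in the other 8 water libraries. Chrnb4 was 2.99 and 4.01 CPM in those 2 libraries and 0 to 0.337 CPM in the other 8. At or under 3 counts of Chrnb4 were 7 of the 10 PrL, 9 of 10 VBT and 5 of 9 S1 libraries, so no fold is given among these 3 regions, and the 2 calls of Chrnb4 between them in the counts by pair are not read as a direction. With them, VTA exceeded PrL by 2.48 for Chrna3 (SE 0.54, adjusted p = 0.000106), and Chrnb4 was called higher in VTA (adjusted p = 0.00437), with no fold given. Without them, the Chrna3 difference was 4.91 (SE 0.38, adjusted p = 1.2e-14), and Chrnb4 was still called higher in VTA (adjusted p = 3.85e-11). The order of PrL and NAc turned for Chrna3, from 1.42 higher in PrL (SE 0.57, adjusted p = 0.0356) to 1.02 lower (SE 0.39, adjusted p = 0.0274). For Chrnb4, PrL was then called lower than NAc (adjusted p = 0.000184), and its differences from VBT and S1 lost their calls (adjusted p = 0.131 and 0.604). In NAc, all 10 water libraries held more than 3 counts of Chrnb4, at 0.172 to 0.920 CPM.

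Chrna7, whose product can form a receptor by itself, was read in all regions. It was 22.3 ± 2.52 CPM in water VTA, 12.5 ± 2.38 in NAc, 12.4 ± 1.33 in PrL, 10.8 ± 1.20 in S1 and 5.28 ± 0.918 in VBT. VTA exceeded NAc by 0.83 on the log2 scale (SE 0.10, adjusted p = 2.66e-09), and S1 exceeded VBT by 0.98 (SE 0.11, adjusted p = 5.6e-11). In both of these steps the libraries did not overlap. NAc, PrL and S1 between them did not differ beyond their spread in this fit. Without the 2 PrL libraries high in olfactory bulb genes, S1 was called 0.28 below PrL by the same test (adjusted p = 0.0254). In the fentanyl libraries PrL exceeded NAc by 0.57 (adjusted p = 2.96e-06) and S1 by 0.48 (adjusted p = 0.000107). S1 and NAc were not called apart in either. VBT, the region with the most Chrna4 and Chrnb2, was thus the one with the least Chrna7.

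**Figure D3:**
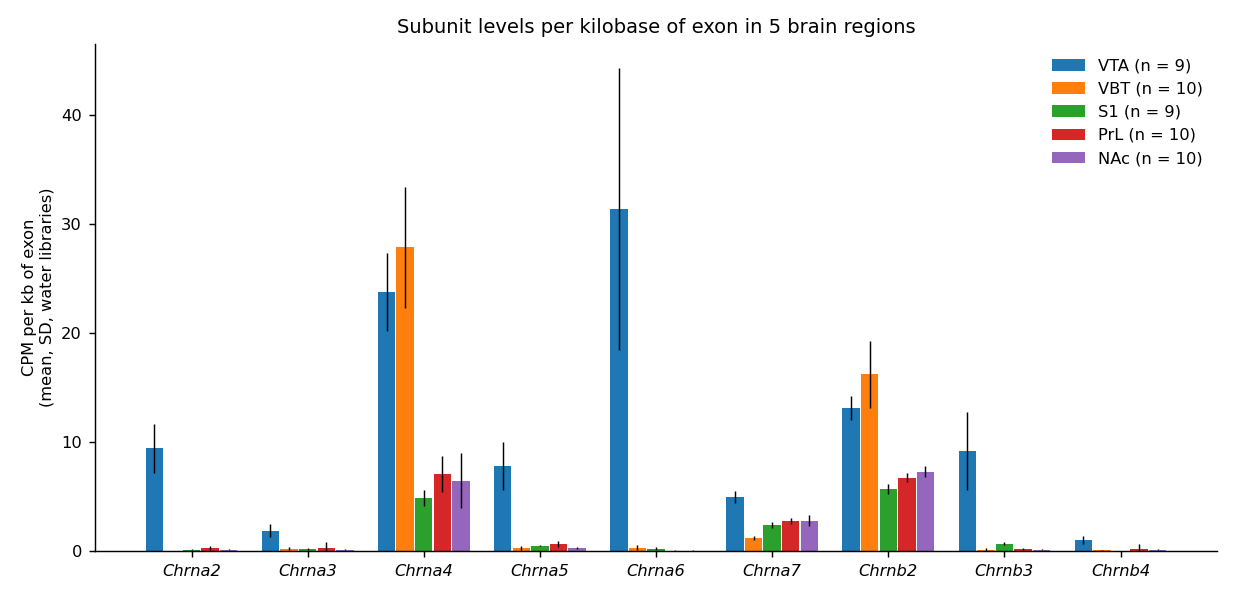
Mean CPM per kilobase of exon in the water libraries (vertical axis) for each subunit and region, with bars for 1 SD. In VTA the bars of Chrna6, Chrna4 and Chrnb2 are the tallest (31.4, 23.8 and 13.1), and in VBT those of Chrna4 and Chrnb2 (27.8 and 16.2) stand far above the rest.

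Per kilobase of exon, where genes can be set against each other, the 9 subunits summed to 102 ± 23.6 CPM per kb in water VTA (n = 9), 46.2 ± 8.59 in VBT, 18.1 ± 2.33 in PrL, 17.2 ± 2.73 in NAc and 14.7 ± 1.15 in S1. Chrna4 and Chrnb2 made up 95.3% ± 1.52 of that sum in VBT (SD over libraries), 79.5% ± 2.21 in NAc, 76.2% ± 3.32 in PrL, 71.9% ± 1.62 in S1 and 37.5% ± 7.82 in VTA. Chrna6 and Chrnb3 made up 37.5% ± 10.8 in VTA, 6.05% ± 0.829 in S1 and at most 2.34% in each water library of the other regions. The punch of VBT was thus nearly all alpha4 and beta2 message, and that of VTA held 9 subunits each above 0.9 CPM per kb on average. In S1, PrL and NAc Chrna7 came next after the leading pair, at 2.40, 2.75 and 2.77 CPM per kb.

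The genes whose pattern over the 48 water libraries was most like that of a subunit were ranked by Pearson's r of log2(CPM + 1) among 13012 genes, as a description; the points share regions and libraries. For Chrna6 they were Foxa1 (r = 0.986), Uncx (0.985) and Pou4f1 (0.984), and for Chrnb3 they were Chrna6 (0.941), Chrna5 (0.932) and Ttc6 (0.931). For Chrna2 they were Gulo (0.984), the interpeduncular marker Pax7 (0.979) and Mab21l1 (0.976). For Chrna5 they were Chrna2 (0.968), Gulo (0.961) and Lmx1b (0.960), and so Chrna5 had as its nearest gene a member on another chromosome and not its neighbour Chrna3. Chrnb4, of the same run of genes, could not be listed. Its highest regional mean was 3.63 CPM, in VTA, under the minimum of 5 CPM for a gene to be ranked. Chrna3 was nearest to Ebf3 (0.898), Lhx5 (0.893) and Cubn (0.883), and Chrnb4 to the dopamine synthesis gene Th (0.941), Smoc1 (0.927) and Fam184a (0.923). The 48 libraries include the 2 PrL water libraries high in olfactory bulb genes, which were high in both Chrna3 and Chrnb4. Th was also high there, at 29.5 CPM in female water 5 and 60.9 CPM in male water 3 (PrL median 1.68). The part of these 2 libraries in the ranks was not tested. Chrna4 was nearest to Cend1 (0.948), Immt (0.944) and Slc38a1 (0.942), Chrnb2 to Sema4g (0.974), Spock2 (0.969) and F2r (0.968), and Chrna7 to Cd200 (0.933), Sdk1 (0.930) and Htr1a (0.923).

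The fentanyl libraries gave the regional comparison again in other samples. There 76 of the 90 differences between regions were called, against 64.0% for all genes, and 65 of the 68 called in water were called in the same direction. The share of all genes called alike in both sets is not given here. The repeat is therefore not read as particular to the subunits. For Chrna3, PrL was 1.89 below NAc (SE 0.34, adjusted p = 5.42e-06), the opposite of the order in water with all libraries. The differences of Chrnb4 between PrL and VBT or S1 were not called.

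The second comparison asked whether the subunits differed between fentanyl and water offspring within a region. No subunit passed the test in any region. In 20 contrasts (females, males, the mean of both sexes and the difference between the sexes in each region), 0 of 156 tests had an adjusted p under 0.05 by edgeR's quasi-likelihood test, against 2.43% over all genes and the same contrasts, and 17 had an unadjusted p under 0.05, against 13.3%. DESeq2's Wald test gave 3 calls (3.62% of all genes) and limma-voom 0 (4.2%). At an unadjusted p under 0.05 they gave 18 (13.9%) and 20 tests (17.1%). All 9 genes were tested in VTA, 8 in S1 (not Chrnb4) and NAc (not Chrna6), and 7 in VBT (not Chrna2 and Chrnb4) and PrL (not Chrna6 and Chrnb4). The rest were too low to pass the filter.

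**Figure D4:**
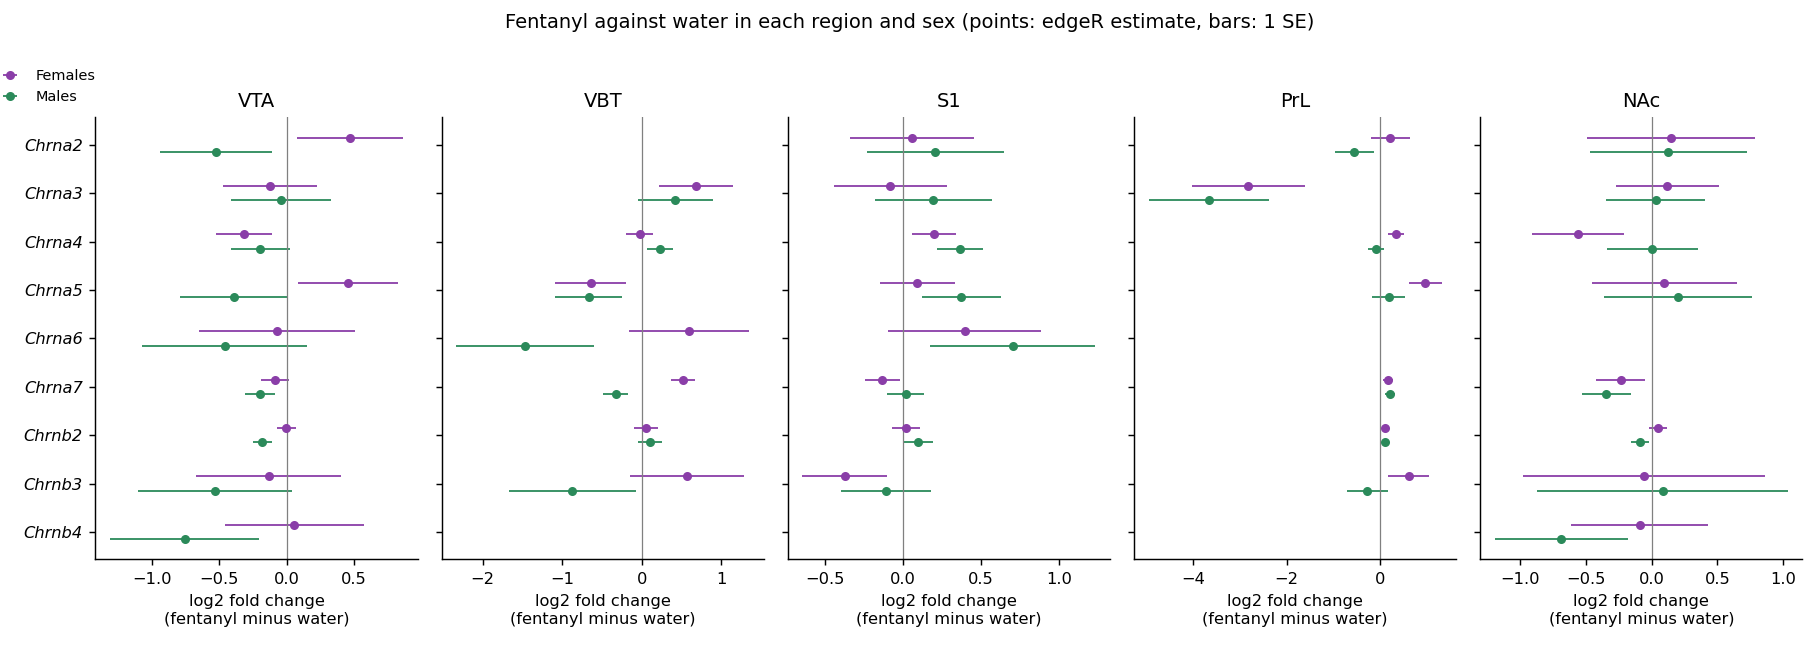
Log2 fold change of fentanyl against water (horizontal axis, points) with bars of 1 SE for each subunit tested, in females (purple) and males (green) of 5 regions, each panel with its own scale. In VTA all 9 points of males lie below 0, Chrna7 lies on opposite sides of 0 in the sexes in VBT, and Chrna3 lies far below 0 in both sexes in PrL, which in females turns to 0.56 without the 2 water libraries high in olfactory bulb genes; none of these passed the test.

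VTA was the region with the most differences over all genes, but no subunit was among them. In males 22.0% of 19822 genes were called and 0 of 9 subunits, and over both sexes 23.1% of genes and 0 of 9. With offsets for GC content these shares of all genes were 4.21% and 4.77%, and in males 14.5% without the 3 libraries with the lowest dopamine scores and 1.4% with both changes. In females and for the difference between the sexes, 0.0% of genes were called. At an unadjusted p under 0.05 there was 1 subunit of 9 in males (34.7% of genes) and none in females (12.7%), over both sexes (35.4%) or for the difference between sexes (11.4%). All 9 estimates in males were below 0, with a median of -0.39 on the log2 scale against 0.00 over all genes, and in females the median was -0.07 with 3 of 9 above 0. The male pattern did not hold under every setting: without the 3 libraries with the lowest dopamine scores 3 of 9 estimates were above 0 (median -0.10), and with GC offsets as well 4 of 9 (median -0.04). With the dopamine score as a covariate 5 of 9 were above 0 (median 0.01), and with the interpeduncular score 6 of 9 (median 0.18).

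The smallest p in VTA males was that of Chrnb2. It held 117, 103, 122 and 114 CPM in water and 84.2, 105, 104, 87.3 and 111 CPM in fentanyl males, so the groups overlapped, and the lowest were male fentanyl 1 and 4, which had low dopamine neuron scores. The estimate was -0.18 (SE 0.07, adjusted p = 0.0867). It was -0.06 with offsets for GC content, -0.10 without the 3 libraries with the lowest dopamine scores and 0.03 with both. With offsets for exon length it was called at -0.24 (adjusted p = 0.0362), where 21.5% of genes were called. Over both sexes Chrna7 had the smallest p (-0.14, SE 0.08, adjusted p = 0.183). Without VTA male water 4, Chrna7 was called over both sexes (-0.20, adjusted p = 0.0383, 18.2% of genes called) and in males (-0.31, adjusted p = 0.0420, 13.3% of genes). In females it was Chrna4 (-0.32, SE 0.21, adjusted p = 0.534), and for the difference between the sexes Chrnb2 (-0.18, SE 0.10, adjusted p = 0.495).

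The dopamine neuron score of the 3 genes ran from 8.05 to 8.88 in VTA males on water and from 6.12 to 8.58 in fentanyl males, and from 6.81 to 9.07 and 7.03 to 8.73 in water and fentanyl females. The interpeduncular score ran from 4.03 to 4.50 and from 2.38 to 4.14 in the same male groups, and from 3.70 to 4.29 and 3.63 to 4.33 in females. In males the groups of both scores lay with their lowest libraries in the fentanyl group. The part of tissue content in the low male estimates was not tested.

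In VBT, Chrna7 in females was the 1 comparison of 78, over members, sexes and regions, in which fentanyl and water libraries did not overlap. In females it was 4.46, 4.10, 5.66, 5.84 and 4.58 CPM in water libraries 1 to 5 and 7.20, 8.48, 5.88, 6.77 and 7.16 CPM in fentanyl libraries 1 to 5. In males it was 6.74, 4.32, 5.24, 5.39 and 6.51 CPM in water and 4.53, 4.48, 5.49, 4.80 and 3.31 CPM in fentanyl libraries. Every fentanyl female was above every water female, by a narrow margin, while in males the groups overlapped with the fentanyl libraries on the low side. Over all genes, groups that did not overlap were found for 2.06% in VBT females and 0.967% in VBT males, and for 1.61% and 22.4% in VTA, 4.22% and 1.72% in S1, 2.18% and 2.0% in PrL and 0.755% and 3.5% in NAc.

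The estimate for Chrna7 in VBT was 0.51 in females (SE 0.15, adjusted p = 0.447) and -0.33 in males (SE 0.15, adjusted p = 0.550). The difference between the sexes was -0.84 (SE 0.21, adjusted p = 0.234), and DESeq2's Wald test called it (adjusted p = 0.0306, with 0.576% of genes called). By edgeR 0.0% of the 18923 genes were called in each of the 4 VBT contrasts, and 0 of 7 subunits. At an unadjusted p under 0.05 there was 1 of 7 subunits in each contrast, against 7.86%, 8.7%, 8.49% and 8.03% of genes in females, in males, over both sexes and for the difference. The female estimate was 0.51 without the library that held Y-linked reads and 0.44 without the library high in choroid plexus genes. The cortical layer 6 list did not mark cortex, so its score is not read as layer 6 content. The score ran from 3.38 to 3.69 in VBT water females (median 3.50) and from 3.62 to 4.09 in fentanyl females (median 3.92). In VBT males its median was 3.73 in water and 3.33 in fentanyl libraries. The list of medial habenula genes was highest in PrL (median 2.56) and lowest in VBT (0.962), so it is not read as habenular content. Its score in VBT ran from 0.724 to 1.30 in water females and from 1.05 to 1.38 in fentanyl females, with medians of 0.898 and 0.906 in males. The part of these scores in the Chrna7 values was not tested. Over both sexes the smallest p was that of Chrna5 (-0.65, SE 0.31, adjusted p = 0.580), which was at most 2.13 CPM in VBT.

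In PrL, no subunit was called in females (0.021% of 19074 genes), in males (0.0%), over both sexes (0.697%) or for the difference between the sexes (0.0%). At an unadjusted p under 0.05 there were 3, 2, 4 and 0 of 7 subunits, against 9.53%, 12.0%, 19.1% and 2.59% of genes. The share of reads outside exons moved with treatment in PrL, at 11.5% to 13.7% in water and 9.48% to 12.2% in fentanyl libraries. With that share as a covariate there were 0, 1, 0 and 0 of 7 subunits, against 5.32%, 7.4%, 7.26% and 2.67% of genes, and the Chrna3 estimate over both sexes was -0.85 and the Chrna5 estimate in females 0.55. Chrna3 had the smallest p over both sexes (-3.24, SE 0.88, adjusted p = 0.0859) and in males (-3.66, SE 1.29, adjusted p = 0.358). In females it held 0.168, 0.118, 0.145, 0.178 and 7.61 CPM in water and 0.216, 0.237, 0.129, 0.326 and 0.219 CPM in fentanyl libraries. In males it held 0.161, 0.435, 5.86, 0.590 and 0.982 CPM in water and 0.237, 0.0532, 0.134, 0.0452 and 0.133 CPM in fentanyl libraries, of which the values of 0.0532 and 0.0452 are 2 counts each and not read as a level. In females 4 of 5 water libraries lay at or below most fentanyl libraries, and the fifth was the one high in olfactory bulb genes.

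Without the 2 libraries high in olfactory bulb genes, the Chrna3 difference over both sexes was -0.79 (adjusted p = 0.320), and in males -2.14 (adjusted p = 0.265). In females it turned from -2.82 (SE 1.21, adjusted p = 0.482) to 0.56 (SE 0.51, adjusted p = 0.756), and the difference between the sexes went from -0.85 (adjusted p = 0.999) to -2.70 (SE 0.70, adjusted p = 0.967). At an unadjusted p under 0.05 there were then 3, 1, 3 and 3 of 7 subunits in females, in males, over both sexes and for the difference, against 9.73%, 9.31%, 13.9% and 4.91% of genes, and 0 were called. DESeq2's Wald test, with all libraries, called Chrna3 over both sexes (-3.23, adjusted p = 0.00422) and Chrnb2 as well (adjusted p = 0.0472), with 4.08% of genes called. Chrnb2, named after its value was seen, was by edgeR 0.11 (SE 0.04, adjusted p = 0.109). Its water libraries averaged 56.1 ± 3.46 CPM and its fentanyl libraries 59.6 ± 2.44 (n = 10 each), and they overlapped.

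Chrna5, which in cortex is known from the deep layers, had the smallest p in PrL females. It was 1.29, 1.09, 2.05, 1.48 and 3.43 CPM in water libraries 1 to 5 and 6.01, 4.21, 3.32, 1.66 and 2.82 CPM in fentanyl libraries 1 to 5. The groups overlapped, with 3 fentanyl libraries inside the water range. The estimate was 0.98 (SE 0.35, adjusted p = 0.384), and 1.30 without the 2 libraries high in olfactory bulb genes (adjusted p = 0.245). In males it was 1.90 ± 0.850 CPM in water and 2.14 ± 0.482 in fentanyl libraries (n = 5 each). The score of the cortical layer 6 list, which did not mark cortex, ran from 3.57 to 5.13 in water females (median 3.82). In fentanyl females the score ran from 4.14 to 5.21 (median 4.42), and its part was not tested. The difference between the sexes was smallest in p for Chrna4 (-0.43, SE 0.24, adjusted p = 0.999).

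**Figure D5:**
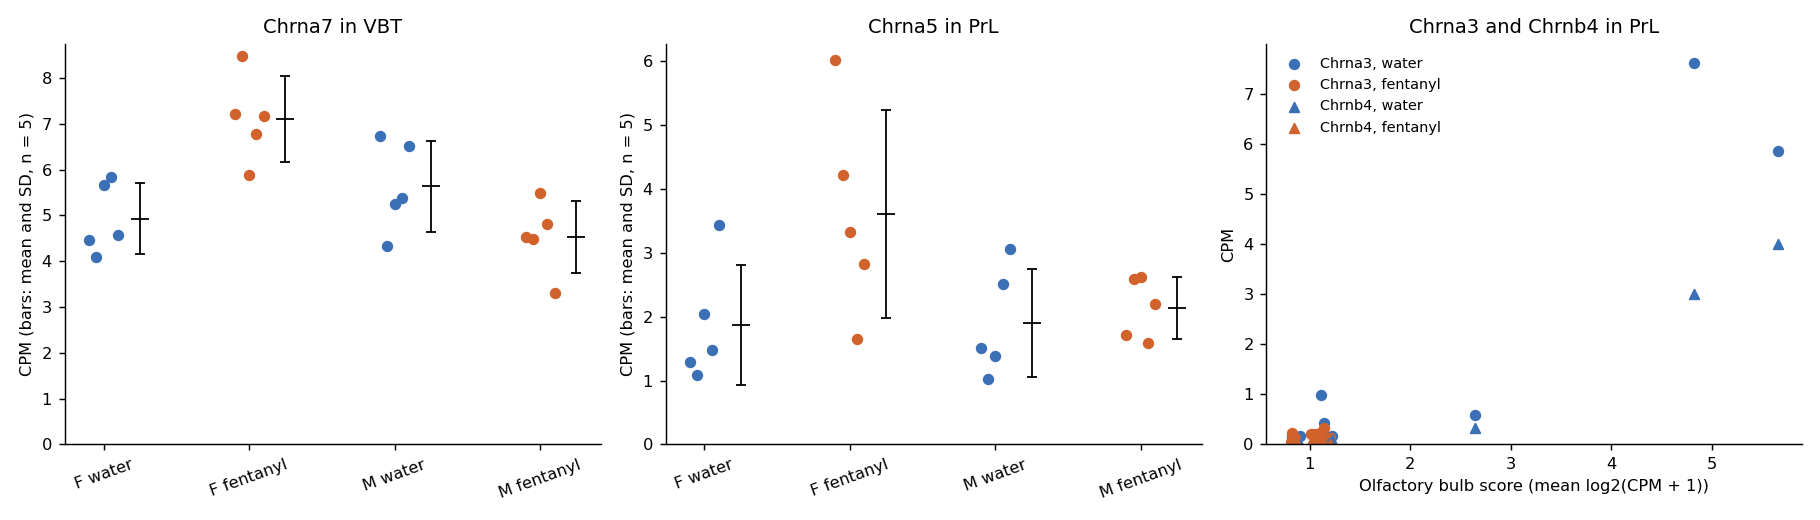
Left and middle, CPM of Chrna7 in VBT and of Chrna5 in PrL for each library of 4 groups of 5 (F female, M male), with the mean and SD beside them. Right, CPM of Chrna3 (circles) and Chrnb4 (triangles) in 20 PrL libraries against the olfactory bulb score; the 2 water libraries with scores of 4.83 and 5.66 hold the high values of both genes.

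In S1, Chrna4 had the smallest p in females, males and both together. In males it was 22.1, 27.8, 22.5 and 25.0 CPM in water libraries 1, 3, 4 and 5 and 33.6, 32.2, 33.8, 24.8 and 30.4 CPM in fentanyl libraries 1 to 5. In females it was 24.3, 19.7, 28.9, 19.8 and 29.8 CPM in water and 21.0, 36.3, 27.0, 26.0 and 31.0 CPM in fentanyl libraries. In males 4 of the 5 fentanyl libraries were above all water libraries, and in females 2 of the 5 fentanyl libraries were above all water libraries, with the other 3 inside the water range. Over both sexes the estimate was 0.28 (SE 0.10, adjusted p = 0.175), and it was 0.37 in males (SE 0.15, adjusted p = 0.668) and 0.20 in females (SE 0.14, adjusted p = 0.549). The score of the cortical layer 6 list, which did not mark cortex, ran from 3.42 to 3.88 in S1 water males. It ran from 3.89 to 4.65 in fentanyl males, with no overlap. In water and fentanyl females it ran from 3.44 to 4.25 and from 3.35 to 4.62. The cortical projection neuron score had medians of 6.73 and 6.82 in the same male groups and of 6.67 and 6.80 in water and fentanyl females, and overlapped in both sexes. The part of these scores in the Chrna4 values was not tested. None of the 8 subunits was called in females (0.142% of 19748 genes), in males (0.0%), over both sexes (1.03%) or for the difference (0.0%). At an unadjusted p under 0.05 there was none in females (13.9%), 1 in males (7.15%), 1 over both sexes (15.8%) and none for the difference (4.14%), where Chrna7 had the smallest p (0.15, SE 0.16, adjusted p = 0.959).

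In NAc, Chrna7 had the smallest p over both sexes (-0.29, SE 0.13, adjusted p = 0.393) and in males (-0.34, SE 0.19, adjusted p = 0.357). Over both sexes it ran from 8.29 over 12.8 to 16.1 CPM in water and from 5.51 over 10.1 to 14.6 CPM in fentanyl libraries (n = 10 each), which overlapped over most of their range. In females Chrna4 had the smallest p, with 55.5, 33.5, 19.8, 40.7 and 49.2 CPM in water and 13.0, 17.0, 35.8, 41.5 and 28.6 CPM in fentanyl libraries (-0.56, SE 0.35, adjusted p = 0.609). The score of cortical projection neuron genes ran from 3.83 to 6.06 in the same water libraries and from 2.45 to 5.56 in the fentanyl libraries. With that score as a covariate the Chrna4 estimate was -0.01 (adjusted p = 0.998). For the difference between the sexes it was Chrnb2 (-0.13, SE 0.10, adjusted p = 0.536). None of the 8 subunits was called in females (0.0% of 19480 genes), in males (0.662%), over both sexes (0.0%) or for the difference (0.0%), and 1 had an unadjusted p under 0.05, over both sexes (12.0% of genes), with none in females (9.03%), males (17.6%) or the difference (15.2%).

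Genes around the receptor were described from a list of 21: the other subunits, which serve muscle and hair cells, the assembly factors Ric3 and Tmem35a, the Ly6 family proteins that bind and modulate receptors, and the genes of acetylcholine supply and breakdown. Of these, 14 were tested in VBT and 15 in each other region. In VTA males 4 were higher and 2 lower in fentanyl, where 22.0% of all genes were called, and over both sexes 2 were higher and 2 lower, where 23.1% were. In the other 18 contrasts none was called. Ache, the enzyme that breaks down acetylcholine, averaged 261 ± 7.33 CPM in water males (n = 4) and fell to 193 ± 19.1 in fentanyl males (n = 5), a log2 fold change of -0.40 (SE 0.08, adjusted p = 0.00316). Bche, a related esterase, averaged 11.0 ± 1.22 CPM in water and rose to 15.9 ± 1.77 CPM (0.56, SE 0.13, adjusted p = 0.00511). Tmem35a, the assembly factor known as NACHO, rose from 48.3 ± 6.21 to 61.6 ± 8.79 CPM (0.39, SE 0.11, adjusted p = 0.0141). These 3 had the smallest p of the 6. With offsets for GC content 0 of these 6 calls remained, and 0 of the 4 over both sexes, where 4.21% and 4.77% of all genes were called. With the interpeduncular score as a covariate 1 of the 6 remained, with the dopamine score 3, and with VTA male water 3 included 0. The shares of all genes called in these fits are not given here. Without the 3 libraries with the lowest dopamine scores 3 of the 6 remained, where 14.5% of all genes were called. The Ache estimate with GC offsets was -0.07 (adjusted p = 0.384).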

How the data were processed

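The deposited files hold raw counts of reads over exons per gene, 1 file per library, as the authors made them; per the submitters' processing notes HTSeq and GRCm38 were used. Versions, the strand setting and the annotation release are not given in the sources used here, and symbols were taken from GENCODE M21 (55154 of 55335 identifiers matched). Per the labels' protocols, 10 ng of RNA from Trizol and a column kit was amplified with SMART-Seq v4, which does not keep strand. The 5 lines of unassigned reads in each file were left out of library sizes and tests, and the reads outside exons among them were 9.48% to 17.0% of reads. VTA male water 3 was left out for having fewer than 10000 detected genes.

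CPM is a gene's count per 1000000 gene counts of its library. Tests used edgeR 4.0.16 (quasi-likelihood, robust, TMM, filterByExpr) in R 4.3.3, with Benjamini-Hochberg adjustment over all genes tested and a threshold of 0.05. Each region was fitted by itself with sex and treatment groups, and regions were compared in 1 fit of the water libraries as a mean over the sexes. The SE is the log2 fold change divided by the square root of the F statistic. Marker scores are the mean of log2(CPM + 1), and correlations used 100000 permutations (scipy 1.17.1), 2-sided. The fits were tested on simulated data first. Alternatives were DESeq2 1.42.0, limma-voom 3.58.1, other filters, a replicate block, offsets for GC content or exon length, covariates, and leaving out libraries; those on marker scores and on libraries that stood apart were chosen after seeing the data.

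The members and the lists were chosen with earlier results of these data known. The text names all 9 members, the member with the smallest p in a contrast with no call, the neighbouring regions in the order of water means, the 3 genes most alike to each member among genes of at least 5 CPM in a region, and at most 3 called pathway genes per contrast by p.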

Additional observations from a re-analysis of the deposited data

Results flagged for a closer look

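In 13 of 156 groups of 4 or 5 libraries, the highest or lowest library of a subunit stood apart from the others by Dixon's criterion, where chance alone gives about 1 in 20, or 7.8 groups. In VTA, Chrna2 was 3.43 CPM in male fentanyl 4, with the other 4 at 29.2 to 38.7 CPM. In PrL, Chrna3 was 7.61 CPM in female water 5 (others 0.118 to 0.178) and 5.86 CPM in male water 3 (others 0.161 to 0.982), and Chrna2 was 2.99 CPM in male water 3 (others 0.590 to 0.866). The first is the library with low Otp and Pax7, and the PrL libraries are those with high olfactory bulb scores. Chrna4 was 55.7 CPM in PrL male water 5 (others 30.1 to 36.7).

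In VBT, Chrna4 was 112 CPM in female water 2 (others 152 to 166), and Chrna5 was 2.13 CPM in male water 3 (others 0.823 to 0.926), both libraries high in striatal genes. Chrnb3 was 3.13 CPM in VBT female fentanyl 5 (others 0.657 to 1.24), 2.80 CPM in female water 5 (others 0.317 to 0.601) and 1.26 CPM in male fentanyl 1 (others at most 0.247). Chrna6 was 1.78 CPM in S1 female water 5 (others 0.217 to 0.608). In NAc, Chrna7 was 5.51 CPM in male fentanyl 2 (others 9.45 to 10.8), and Chrnb2 was 53.5 CPM in male water 2 (others 63.5 to 66.6).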

How the results depend on the processing

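The count of 0 subunits called between fentanyl and water held in every contrast under most alternatives. It became 1 in VTA males with offsets for exon length, 1 for the VBT difference between the sexes with DESeq2's Wald test and 2 over both sexes in PrL with the same test. Leaving out 1 library gave 0 to 1 in VTA males and over both sexes in VTA, and 0 in the other contrasts. The estimate turned to 0.0303 for Chrnb2 in VTA males and to 0.00824 for its difference between the sexes without the 3 libraries with the lowest dopamine scores and with GC offsets, and to 0.0141 for Chrna7 over both sexes in VTA when VTA male water 3 was included. The cause was not tested. The mean correlation of same-numbered deviations was low, at -0.0687 to 0.0707 over 7 sets. Across regions in water it was 0.0580 in females and 0.0707 in males, against -0.0138 and -0.0175 for differently numbered pairs. Such low means cannot show whether libraries of several regions came from 1 animal. With the replicate block, 0 of 156 tests were called (14 at an unadjusted p under 0.05, 12.4% of all genes), and 67 of 90 between regions (59.6% of all genes). Region calls were 68 with DESeq2's Wald test (60.3% of genes), 71 with limma-voom (64.4%), 66 without a filter (34.5%) and 59 with VTA male water 3 (34.5%). With 1 library left out they were 67 to 69, for example 67 without VTA female water 1 (59.6% of genes). With VTA male water 3 included, Chrna7 lost its call between VTA and NAc (0.63, adjusted p = 0.104). Levels at or under 3 counts are not readable at this depth.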
